A study of Arabidopsis thaliana with 60 samples.

Results

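In the stem of bolting Arabidopsis thaliana plants, 57 of 32833 genes were higher after 8 min of HL&HS, in which one leaf was under high light and another leaf of the same plant under heat, than in every other stem group of that time and than in control. The members were chosen on the values described here: the 27 stem libraries had to average 20 or more normalized counts for a gene, as they did for 17429 genes, and the log2 of its HL&HS group mean plus 1 had to be at least 0.6 above that of the control and of each of the HL, HS and HL+HS groups at 8 min. Differences among these 5 groups are therefore a description of the choice, with no test. The tests given are on leaf libraries, and on stem libraries of 2 min compared with each other, which the choice did not use apart from the floor on the mean.

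All plants were the wild type Col, grown at 23 °C under 50 µmol of light. In HL&HS plants the light and the heat fell on separate leaves, and the lit leaf, the heated leaf and the stem were each sequenced (HL leaf and HS leaf in the plots). In HL+HS plants a single leaf received both stresses, in HS plants it received only heat, from a block placed 2 cm below it, and in HL plants only light, at 1700 µmol. Each stress lasted 2 or 8 min, control plants were sampled at 0 min, and the stem was never treated itself. Stem values can hold a response at a distance and also differences in the tissue sampled, for which marker sums are given below. There were 20 groups of 3 libraries, 11 of leaf and 9 of stem. For the leaf groups of a single stress at 8 min the title names one stress and the treatment tag the other, so they are called titled HL and titled HS. The stem groups HL and HS at 8 min rest on titles alone, but the choice of members treats both alike. Whether the 3 libraries per group are separate plants or pools is not stated in the labels, so the p-values measure the spread between these libraries, which may be technical.

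Libraries of 2 min held 31725824 to 47559552 counted reads and those of 0 and 8 min 11071918 to 12998149, so 2 min groups were compared with each other and not tested against control. In stem the 12 xylem and secondary wall markers summed to between 36343 and 36786 normalized counts in HL&HS libraries of 8 min, between 55439 and 61742 under HL+HS, between 49815 and 50874 under HS, between 37791 and 42960 under HL and between 79542 and 83965 in control. Of these 12 markers 10 were at least 0.6 lower on the log2 scale in HL&HS than in control and none was at 0. In bulk tissue fewer xylem cells and less RNA per xylem cell cannot be told apart, and the part of this difference in the values below was not tested. The summed phloem markers overlapped control, at 10545 to 11300 in HL&HS and 10492 to 10854 in control. Other markers differed between groups as well. The 7 floral organ identity markers summed to 153 to 172 in HL&HS, 51.9 to 58.3 in HL+HS, 50.7 to 80.6 in HS, 193 to 288 in HL and 166 to 197 in control, with 1 of them at 0 in HL+HS. The 11 pollen and anther markers summed to 93.9 to 101 in HL&HS, 71.4 to 82.3 in HL+HS, 117 to 190 in HS, 237 to 326 in HL and 198 to 265 in control, with 1, 3, 3, 0 and 1 of them at 0 in these groups. Stem groups of 2 min differed too. Their floral organ identity markers summed to 139 to 176 in HL&HS and 68.8 to 83.0 in HL+HS. The sums were 230 to 265 in HS and 121 to 139 in HL. The part of these markers in the values below, of 2 and of 8 min, was not tested.

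Plants under light or heat send reactive oxygen, calcium and electrical signals out of the stressed leaf along the vasculature, and tissues that were never exposed then change their transcripts within minutes. Heat shock factors bind heat shock elements, repeats of the unit nGAAn, and switch on chaperone genes, whose proteins hold or refold others that have lost their shape. A second group of fast genes encodes zinc finger, WRKY and ERF transcription factors known from wounding, reactive oxygen and defence.

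Both kinds of gene were among the members. A list of heat shock factors held 2 members, HSFA2 and HSFB2A, of its 14 genes with a stem mean of at least 20. A list of heat chaperones and their co-regulators held 8 of 26, and a list of rapid reactive-oxygen and wound regulators 7 of 19. The abscisic acid list held 1 of 17, NCED3, and the jasmonate and ER stress lists none of 17 and 10. The lists were drawn up with earlier results of these data known, and the rule used these values, so nothing is read from the counts. The remaining 39 members were on no list. The median difference of HL&HS over the 57 members was 1.70 from control (range 0.67 to 4.73), 0.83 from HL+HS, 0.98 from HS and 1.40 from HL, against medians between -0.02 and -0.01 over the 17429 genes. In 54 of the 57 all 3 HL&HS libraries lay above all 12 libraries of the other groups, as they did in 2.25% of the 17429 genes. WRKY22, AT4G39363 and AT1G61470 were the exceptions.

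**Figure D1:**
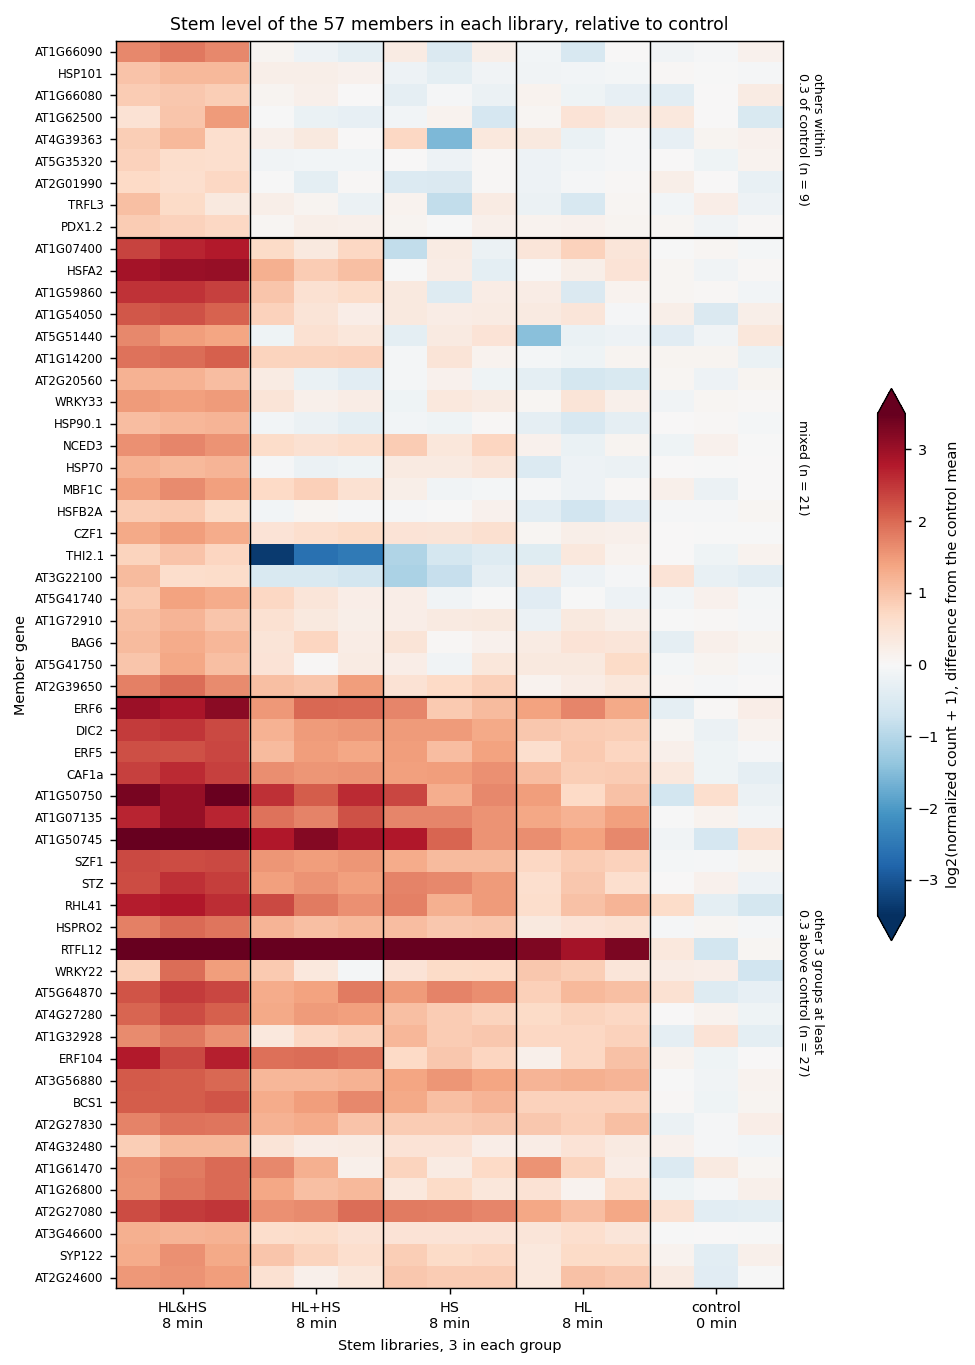
Each row is a member and each column a stem library, grouped as HL&HS, HL+HS, HS and HL at 8 min and control at 0 min; colour gives log2(normalized count + 1) minus that of the control mean, and stronger red is higher. The top block holds the 9 members whose other 3 stress groups stayed within 0.3 of control, the bottom block the 27 whose other 3 groups were all at least 0.3 above it, with 21 mixed members between.

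Being raised under HL&HS alone described a minority of the members. In 9 of them the HL+HS, HS and HL groups all lay within 0.3 of control on the log2 scale: AT1G66090, HSP101, AT1G66080, AT1G62500, AT4G39363, AT5G35320, AT2G01990, TRFL3 and PDX1.2. In 27 others, among them ERF6, DIC2, STZ, RHL41, SZF1 and RTFL12, each of the other 3 groups was at least 0.3 above control, and HL&HS was the highest of 4 raised groups. The remaining 21 were mixed. Over the 17429 genes 9.61% were at least 0.3 above control under HL+HS, 10.2% under HS and 14.4% under HL, each group taken alone. The share of all genes with all 3 groups above, or all 3 within 0.3, was not counted. At the edge of the rule, AT2G39650 and AT2G24600 were just inside, with their smallest difference at 0.61 in both, and the heat-inducible regulators DREB2A and HSFB2B were just outside at 0.60 and 0.59.

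HSFA2 (AT2G26150), a heat shock factor that is itself induced by heat and sustains the heat response, had the second largest margin over the nearest other group. Its stem libraries held 591, 631 and 647 normalized counts under HL&HS at 8 min, against 183, 144 and 161 under HL+HS, 77.5, 92.5 and 61.2 under HS, 79.9, 89.8 and 109 under HL, and 82.1, 71.1 and 79.4 in control. No HL&HS library overlapped another group, and HL+HS also lay above all control libraries, while HS and HL overlapped control. HSFA2 differed by 2.99 on the log2 scale from control and by 1.93 from HL+HS. HSFB2A (AT5G62020), a class B factor that acts mostly as a repressor, was at 212, 217 and 185 under HL&HS, 107, 121 and 112 under HL+HS, 111, 113 and 127 under HS, 88.5, 71.6 and 86.8 under HL, and 113, 111 and 122 in control. Its HL+HS and HS libraries overlapped control, and its HL libraries lay below it.

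The promoter of HSFA2 is shown because it was the only one among the members with a full 3-unit heat shock element, searched as TTC, GAA and TTC with 2 bases between neighbours, on both strands of the 250 bases before the gene start. The capitals mark the element, on RefSeq TAIR10.1 at chr2:11135374-11135623, plus strand.

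HSFA2: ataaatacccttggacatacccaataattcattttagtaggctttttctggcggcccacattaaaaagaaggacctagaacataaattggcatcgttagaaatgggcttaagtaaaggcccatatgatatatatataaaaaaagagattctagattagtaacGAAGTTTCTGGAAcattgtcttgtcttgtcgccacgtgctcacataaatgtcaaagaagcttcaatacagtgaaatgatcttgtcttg

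The exact element occurred in 1 of the 56 protein-coding members and in 0.386% of 27444 promoters of protein-coding genes. With at most 1 of its letters different it occurred in 8 of 56 members, 14.3%, and in 8.40% of all promoters, and 5 of the 8 were heat-list members: HSFA2, AT1G59860, AT5G51440, HSP90.1 and BAG6. Stretches from AT1G59860, AT5G51440 and BAG6, on the plus strand, show how the element varies (capitals mark the match, at chr1:22031293-22031342, chr5:20891039-20891111 and chr2:18986069-18986132). A match describes letters and is not evidence of binding.

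AT1G59860: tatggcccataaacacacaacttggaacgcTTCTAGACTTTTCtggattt
AT5G51440: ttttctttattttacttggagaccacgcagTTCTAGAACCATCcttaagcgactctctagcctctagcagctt
BAG6: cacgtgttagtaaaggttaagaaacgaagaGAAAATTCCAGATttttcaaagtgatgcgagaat

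Small heat shock proteins, which hold unfolding proteins until other chaperones act, were among the members with the largest margins. AT1G07400, a cytosolic class I gene, held 149, 184 and 197 normalized counts in stem under HL&HS at 8 min, against 45.5, 35.9 and 46.9 under HL+HS, 15.2, 34.3 and 24.1 under HS, 38.5, 50.2 and 38.3 under HL, and 27.9, 29.8 and 27.03 in control. All HL&HS libraries lay above the 12 others. AT1G59860, of the same class, was at 181, 183 and 167 under HL&HS and between 28.7 and 32.3 in control, and AT1G54050, another HSP20-like chaperone, was at 346, 360 and 320 under HL&HS and 88.0, 52.9 and 87.8 in control. The mitochondrial small heat shock gene AT5G51440 was at 71.3, 61.5 and 57.3 under HL&HS and between 7.14 and 31.4 in the 12 other libraries of control and 8 min.

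Larger chaperones differed by smaller factors. HSP101 (AT1G74310), which pulls proteins out of aggregates, held 1925, 2143 and 2108 under HL&HS, 1109, 1123 and 1084 under HL+HS, 858, 769 and 892 under HS, 882, 912 and 917 under HL, and 1002, 963 and 939 in control. Its HS and HL libraries all lay below those of control. HSP90.1 (AT5G52640), the heat-inducible cytosolic HSP90, held 1110, 1174 and 1196 under HL&HS and 412 to 494 under HL+HS, with control at 532, 539 and 502. HSP70 (AT3G12580) was at 2598, 2471 and 2550 under HL&HS, 1098, 974 and 1015 under HL+HS, 1396, 1401 and 1508 under HS, 812, 988 and 976 under HL, and 1125, 1115 and 1127 in control. For HSP90.1 and HSP70 the HL+HS libraries all lay below control, on the other side from HL&HS. The J-domain gene AT2G20560, whose product works with HSP70, was at 367, 372 and 337 under HL&HS, against 167, 141 and 169 in control. BAG6 (AT2G46240), a co-chaperone, was at 257, 295 and 267 under HL&HS, against 95.3, 136 and 127 in control. MBF1C (AT3G24500), a coactivator needed for thermotolerance, was at 849, 988 and 846 under HL&HS, against 356, 271 and 318 in control. Of the exons of MBF1C 25.9%, and of PDX1.2 19.0%, overlap genes on the other strand, and the counting of strand is not given in the sources used here, so their values are uncertain.

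The 18 chaperone-list genes of stem mean at least 20 that are no members had a median difference of 0.21 between HL&HS and control. The median over the 17429 genes was -0.0082. Of the 18, 4 were at least 0.6 above control, as were 3.63% of all. Of 12 such rapid-list genes that are no members, 9 were at least 0.6 above control, with a median of 0.98. Of 12 such genes of the heat shock factor list 1 was, with a median of -0.03. The rule used these same differences, and these genes are the ones that failed it. The lists were drawn up with earlier results of these data known, so nothing is read from these counts.

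**Figure D2:**
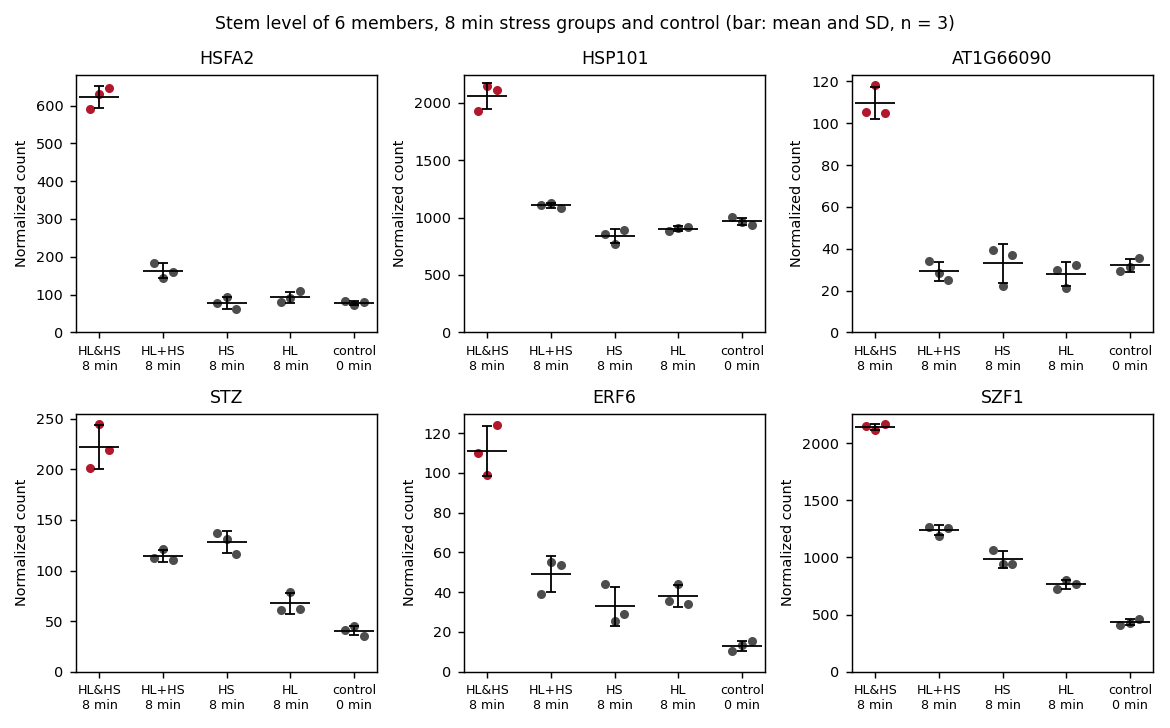
Normalized counts of 6 members in stem (y axis, starting at 0) for HL&HS, HL+HS, HS and HL at 8 min and control; points are libraries, and bars give mean and SD (n = 3). HSFA2, HSP101 and AT1G66090 stand apart under HL&HS, while STZ, ERF6 and SZF1 are also above control in the other 3 groups.

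Of the 7 rapid-list members 6 had all other 3 stress groups at least 0.3 above control, and WRKY33 did not. STZ (AT1G27730), a C2H2 zinc finger repressor also called ZAT10, held 202, 244 and 220 normalized counts under HL&HS, 112, 121 and 111 under HL+HS, 137, 131 and 116 under HS, 61.4, 79.2 and 61.8 under HL, and 41.1, 44.7 and 35.5 in control. SZF1 (AT3G55980), a CCCH zinc finger gene of the salt and defence response, held 2148, 2114 and 2165 under HL&HS, 1263, 1187 and 1260 under HL+HS, 1066, 940 and 941 under HS, 721, 805 and 764 under HL, and 412, 424 and 463 in control. For both genes no stress library overlapped control. ERF6 (AT4G17490), an ethylene response factor phosphorylated in defence and oxidative stress, held 110, 99.0 and 124 under HL&HS, against 10.3, 13.2 and 15.2 in control, and 25.4 to 55.3 in the other stress groups. ERF5 held 177, 175 and 189 against 41.1, 33.1 and 35.5 in control, and ERF104 282, 205 and 270 against 44.0, 36.4 and 40.5. RHL41, also called ZAT12, was at 149, 154 and 132 under HL&HS, 109, 77.8 and 67.0 under HL+HS and 33.7, 16.5 and 13.5 in control.

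WRKY33 (AT2G38470) is a regulator of camalexin synthesis and of defence against necrotrophic fungi. It held 383, 366 and 387 under HL&HS, 187, 154 and 164 under HL+HS, 122, 175 and 166 under HS, 141, 184 and 153 under HL, and 125, 142 and 140 in control, so that HS and HL overlapped control. CZF1, a close relative of SZF1, was at 1136, 1251 and 1126 under HL&HS and 461, 450 and 451 in control, with HL 0.16 above control. NCED3 (AT3G14440), which catalyses the first committed step of abscisic acid synthesis, was at 112, 118 and 108 under HL&HS and 32.3, 39.7 and 35.5 in control, and HL was 0.02 above control.

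Some members stood outside these families. AT1G66090, annotated as a disease resistance protein of the TIR-NBS class, was at 105, 118 and 105 under HL&HS and between 21.3 and 39.5 in all 12 other libraries. TIR-NBS and TIR proteins gave 3 further members, AT5G41740, AT5G41750 and AT1G72910. AT5G41740 and AT5G41750 are neighbours that share sequence, and 12.3% of the 50-base windows of AT5G41740 and 18.1% of those of AT1G72910 occur in other genes, so their counts are uncertain. DIC2 (AT4G24570), a mitochondrial dicarboxylate carrier, was at 643, 660 and 581 under HL&HS, 274, 326 and 343 under HL+HS and 122, 101 and 127 in control. AT1G14200, a RING-finger protein, was at 567, 591 and 649 against 163, 162 and 128 in control. RTFL12, of a family of small peptides that limit organ growth, held 110, 126 and 90.7 under HL&HS, 50.3, 67.3 and 77.1 under HL+HS, 59.3, 56.7 and 59.5 under HS, 38.5, 30.4 and 39.7 under HL, and 4.40, 1.65 and 3.38 in control. Its difference from control, 4.73 on the log2 scale, was the largest of the members, on few control reads. The plant mobile domain genes AT1G50745 and AT1G50750 are neighbours too, as are AT1G66080, whose product resembles Hikeshi, and AT1G66090, so 6 members form 3 adjacent pairs. The defensive peptide gene THI2.1 lay below control in HL+HS: it held 72.9, 85.5 and 71.6 under HL&HS, but 3.25, 5.98 and 6.70 under HL+HS, 19.8, 26.9 and 30.6 under HS, 31.4, 54.8 and 45.6 under HL and 42.5, 38.1 and 45.6 in control. All its HL+HS and HS libraries lay below control, in the 2 groups where the floral organ identity markers were lowest, and the part of those markers was not tested.

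The hexamer CGCGTT, known in Arabidopsis as the rapid stress response element, occurred on either strand in the 250 bases before 8 of the 56 protein-coding members, 14.3%, and before 2.59% of all 27444 genes. The 8 were AT1G66090, DIC2, HSP70, AT5G41740, AT5G64870, AT1G32928, AT1G61470 and AT2G24600, so the motif was not confined to 1 family. The stretches around it in the 3 members with values given here are shown, with the hexamer in capitals (TAIR10.1, chr1:24601955-24602020 and chr4:12686290-12686355, plus strand, and chr3:3994083-3994136, minus strand). In HSP70 it lies on the other strand, as AACGCG.

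AT1G66090: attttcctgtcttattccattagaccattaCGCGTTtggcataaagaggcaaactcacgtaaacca
DIC2: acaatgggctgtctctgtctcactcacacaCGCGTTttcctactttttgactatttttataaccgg
HSP70: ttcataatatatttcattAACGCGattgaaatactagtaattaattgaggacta

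The other motifs searched were GCCGCC, the GCC box of ERF factors, in 8.93% of members and 1.87% of promoters, TTGAC, the core of the WRKY W-box, in 55.4% and 44.9%, CACGTG, the G-box, in 7.14% and 6.49%, and GCCGAC, the DRE, in 5.36% and 2.56%. The evening element AAAATATCT, in 1.79% and 2.36%, the telo-box AAACCCTA, in 3.57% and 4.49%, and TGGGCC, site II, in 10.7% and 13.7%, were near their share of all promoters. Both 2-unit forms of the heat shock element together, GAANNTTC and TTCNNGAA, which overlap the 3-unit form, were in 26.8% and 16.1%. The HSFA2 promoter holds both of them, a G-box, a GCC box, TTGAC and site II as well.

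Genes abundant in leaf were read at low levels in the stem libraries. For 10 genes whose stem mean at 2 min was at most 0.2% of a leaf mean of 200 or more, chosen after seeing the data, stem libraries held 0.229%, 0.191% and 0.169% of the leaf level under HL&HS at 8 min, against 0.0698% to 0.0912% under HL+HS, 0.0755% to 0.120% under HS, 0.0167% to 0.0401% under HL, and 0.0687%, 0.0207% and 0.0369% in control. Each of these rests on 4 to 50 reads. Leaf RNA in stem libraries and a change of these genes within the stem cannot be told apart, and their part in the members' values was not tested.

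In the treated leaf most members responded to every stress. Of the 57, 54 passed the filter of a mean of 10 normalized counts over the leaf libraries. THI2.1, AT3G22100 and AT1G62500 did not and were not tested there. At 8 min 52 of the 54 were higher than control in the lit leaf of HL&HS plants (17.4% of the 18231 genes tested), 52 in the heated leaf of HL&HS plants (24.6%), 52 under HL+HS (18.0%), 53 in the group titled HS (19.0%) and 52 in the group titled HL (18.9%), in limma with an adjusted p under 0.05. Their median log2 differences from control were 3.59, 3.96, 3.38, 2.68 and 2.87, each beside a median between -0.01 and 0.02 over all genes tested. TRFL3, of a family that resembles telomere repeat binding proteins, went the other way: it held 50.9, 45.9 and 47.6 in the heated leaf of HL&HS plants and 78.2, 79.1 and 82.9 in control, a log2 difference of -0.72 ± 0.14 (SE; adjusted p = 5.71e-05, limma). In that leaf 17.8% of all genes were lower. Summed xylem markers were at 1717 to 4022 in the lit leaf of HL&HS plants and 991 to 1084 in control leaves, and their part in these values was not tested.

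The order of the leaf groups differed between most heat-list members and the rapid-list members. The exception was HSFB2A, a heat-list member that was highest in the heated leaf of HL&HS plants, with titled HS 0.057 above titled HL (log2). HSFA2 in leaf held 20295, 21479 and 22059 in the lit leaf and 21545, 20322 and 21352 in the heated leaf of HL&HS plants, 32212, 32567 and 31876 under HL+HS, 3987, 4211 and 4181 titled HS, 9830, 9604 and 10245 titled HL, and 236, 249 and 247 in control. The 2 leaves of HL&HS plants overlapped each other, and both lay between the single stresses and HL+HS. ERF5 in leaf held 525, 610 and 628 in the lit leaf and 972, 851 and 889 in the heated leaf of HL&HS plants, 292, 361 and 291 under HL+HS, 789, 795 and 816 titled HS, 346, 340 and 297 titled HL, and 17.8, 16.8 and 24.7 in control. Here the leaves of HL&HS plants lay above HL+HS, and HL+HS overlapped titled HL.

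**Figure D3:**
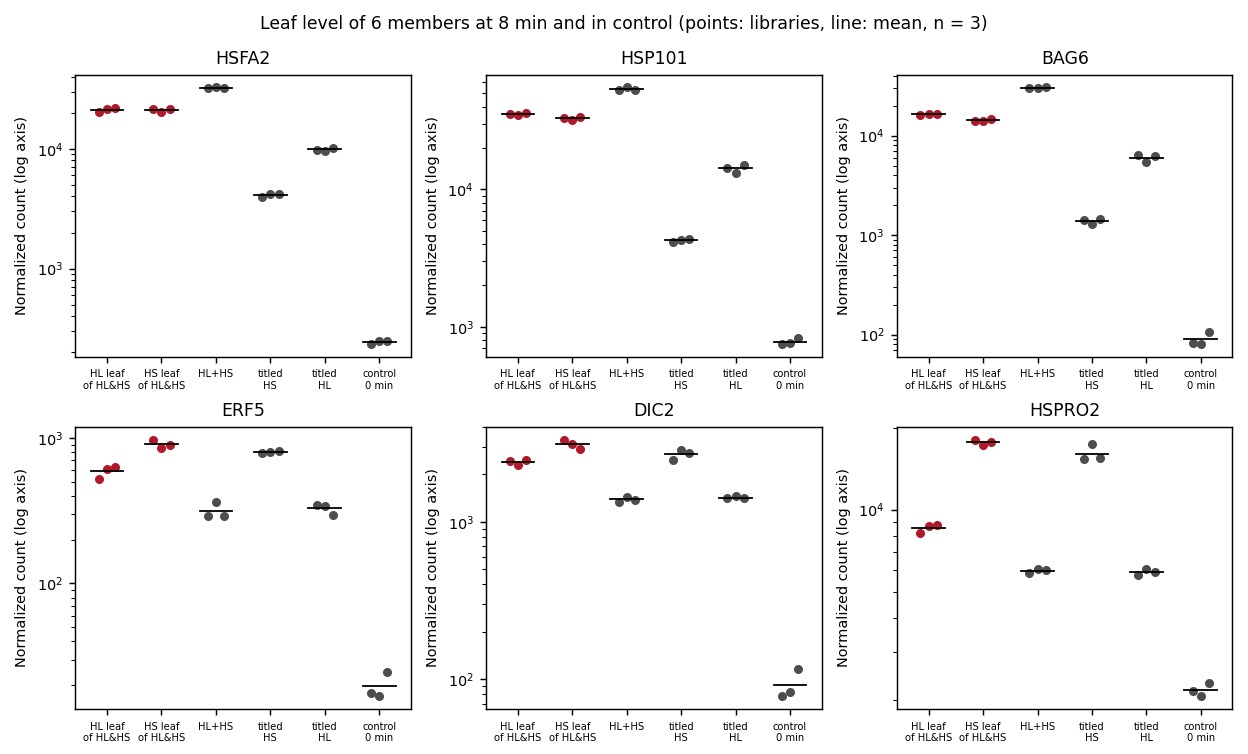
Normalized counts of 6 members in leaf (log y axis) for the lit leaf and the heated leaf of HL&HS plants, HL+HS, titled HS, titled HL and control; points are libraries and lines are means (n = 3). HSFA2, HSP101 and BAG6 are highest under HL+HS, and ERF5, DIC2 and HSPRO2 in the heated leaf of HL&HS plants.

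The mean of both HL&HS leaves was compared with HL+HS, which asks whether stresses on separate leaves act on a leaf as both on that leaf do. Of the 54 members tested 29 were higher in HL&HS leaves (17.8% of all genes tested) and 16 were lower (11%, 1997 of 18231), with a median of 0.31 against 0.02 over all genes (limma, adjusted p under 0.05). Higher or lower in HL&HS leaves refers to the mean of both leaves, here and below, and need not hold in each. For AT3G46600, called higher, every lit-leaf library lay below the HL+HS ones. For WRKY22 and AT2G27830, also called higher, the lit-leaf libraries overlapped HL+HS. Such members were not counted. Of the 10 heat-list members 9 were lower and the other, HSFB2A, did not pass at -0.12 ± 0.05 (SE; adjusted p = 0.052, limma). HSFA2 differed by -0.61 ± 0.04 (adjusted p = 3.41e-16, limma), HSP101 by -0.65 ± 0.04 (adjusted p = 3.42e-17) and HSP90.1 by -0.72 ± 0.04 (adjusted p = 3.26e-18). BAG6, with 16267, 16481 and 16338 in the lit leaf, 13995, 14144 and 14871 in the heated leaf and 29979, 30000 and 30587 under HL+HS, had the largest of these differences at -0.98 ± 0.07.

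Of the 7 rapid-list members 6 were higher. RHL41 was the exception at -0.05 ± 0.09 (adjusted p = 0.731, limma). ERF5 differed by 1.21 ± 0.11 (SE; adjusted p = 2.96e-11, limma) and ERF6 by 1.06 ± 0.16 (adjusted p = 2.54e-06). The smallest p among the higher members was that of HSPRO2 (AT2G40000), an ortholog of a sugar beet nematode resistance gene, with 8236, 8695 and 8788 in the lit leaf, 18078, 17242 and 17760 in the heated leaf and 5830, 6050 and 6021 under HL+HS, a difference of 1.05 ± 0.04 (adjusted p = 5.61e-23, limma). Among the higher members AT1G72910 came next, with 0.72 ± 0.04 (adjusted p = 5.02e-17).

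Members split by this comparison also differed in the order of leaf groups and in stem values. All 16 lower members had HL+HS as their highest leaf group at 8 min, and 26 of the 29 higher ones had the heated leaf of HL&HS plants. The split used the same leaf libraries, so whether HL+HS was the highest group was largely fixed by it. For all 29 higher members the group titled HS exceeded the group titled HL, and for 15 of the 16 lower ones it was below, the exception being AT1G26800, a RING-finger gene, with 2059, 2159 and 2159 titled HS and 1955, 2331 and 2025 titled HL. In stem at 8 min the 29 had a median HL+HS minus control of 1.18 and the 16 one of 0.24, and 23 of the 29 but 1 of the 16 were among those at least 0.3 above control in all other groups. The stem excess under HL&HS had a median of 16.1% of the leaf level over the 29 and of 2.49% over the 16. These are descriptions of members already chosen on stem values, and the stem values were not tested. How many of all genes called higher or lower here had titled HS above or below titled HL was not counted. Their stem values were not counted either, so nothing particular to the members is read from this split.

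**Figure D4:**
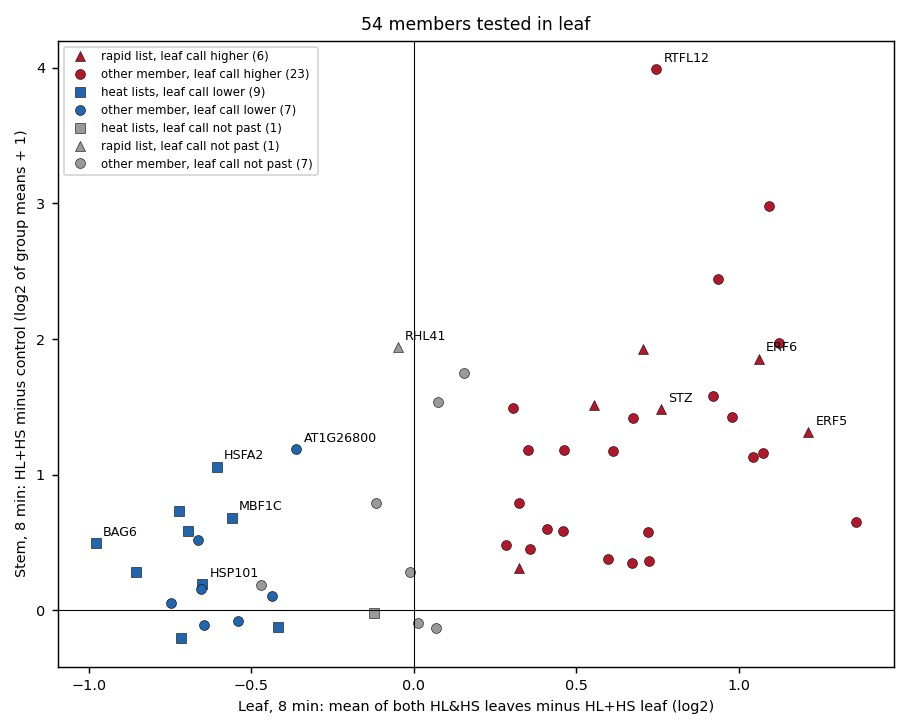
Each point is 1 of the 54 members tested in leaf; the x axis gives the leaf log2 difference of HL&HS leaves minus HL+HS at 8 min, and the y axis the stem log2 difference of HL+HS minus control, with colour for the leaf call and shape for the list. The 9 heat-list members called lower in leaf lie left of 0 and no higher than 1.06 on the y axis, and the 6 rapid-list members called higher lie right of 0.

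Against the mean of both single stresses at 8 min, the HL&HS leaves were higher for 49 of the 54 members (24.5% of all genes tested) and lower for 1, TRFL3 at -0.66 ± 0.10 (18.8% of all genes were lower; adjusted p = 7.65e-07, limma). HSP101 had the smallest p, at 2.13 ± 0.03 (SE; adjusted p = 1.7e-38), with 35220, 34588 and 36172 in the lit leaf and 33321, 32075 and 33517 in the heated leaf of HL&HS plants, 4146, 4264 and 4384 titled HS and 14358, 13174 and 15069 titled HL. HSP70 followed at 1.43 ± 0.02 (adjusted p = 7.44e-36). The result depended on the single stress used: against titled HS alone, an alternative chosen after seeing the data, 27 members were higher and 9 lower (21.2% and 18.0% of all genes tested), and ERF6, ERF5 and HSPRO2 were at -0.10, -0.14 and -0.38. Against titled HL alone, added likewise, 52 were higher and 1 lower (22.3% and 16.7%).

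At 2 min the HL&HS leaves already differed from the other stressed leaves. They were higher than HL+HS for 49 of the 54 members (6.74% of all genes tested), with a median difference of 1.02 beside -0.0011 over all genes, and the other 5 did not pass (3.28% of all genes were lower; limma, adjusted p under 0.05). In this comparison heat-list and rapid-list members went the same way, at all 10 and all 7. STZ held 838, 843 and 872 in the lit leaf, 993, 1009 and 947 in the heated leaf and 98.0, 103 and 113 under HL+HS, a log2 difference of 3.12 ± 0.05 (SE; adjusted p = 6.02e-37, limma). ERF104 differed by 2.66 ± 0.06 (adjusted p = 1.72e-31). HSFA2 held 1372, 1358 and 1389 in the lit leaf, 988, 957 and 939 in the heated leaf and 439, 441 and 396 under HL+HS, so that at 2 min it was higher in HL&HS leaves by 1.43 ± 0.04 (adjusted p = 4.8e-29), in the opposite direction to 8 min.

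Compared with the mean of HL and HS at 2 min, HL&HS leaves were higher for 42 members (20.2% of all genes tested) and lower for 6 (14.7%; limma, adjusted p under 0.05). HSFA2 had the smallest p, at 1.31 ± 0.03 (SE; adjusted p = 3.22e-31), followed by STZ at 1.57 ± 0.04 (adjusted p = 3.5e-30). Among the 6 lower members was BCS1 (AT3G50930), a mitochondrial AAA-type ATPase, which held 337, 311 and 365 in the lit leaf, 351, 368 and 339 in the heated leaf, 539, 515 and 489 under HS and 502, 548 and 486 under HL (-0.57 ± 0.05, adjusted p = 4.47e-13, limma). AT2G24600, an ankyrin repeat gene, was lower by -0.38 ± 0.05 (adjusted p = 1.84e-08).

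In stem at 2 min, before the time that chose the members, all 57 passed the filter. Part of them stood higher under HL&HS than under another stress of that time, which does not place them above control. From control, 20 of the 57 were at least 0.3 higher under HL&HS at 2 min (12.9% of 17429 genes). A further 8 were at least 0.3 lower (12.3%), and the median was 0.15, with no test. WRKY33 was at -0.34 from control under HL&HS and at -0.94 under HL+HS. Compared with HS 21 were higher (2.26% of the 18428 genes tested) and 2 lower (3.56%), compared with HL+HS 18 were higher (1.47%) and 2 lower (1.66%), and compared with HL 8 were higher (2.01%) and 1 lower (0.678%), in limma with an adjusted p under 0.05. Their median differences were 0.25, 0.25 and 0.14, beside -0.0088, -0.0013 and -0.0043 over all genes. Of the members already at least 0.3 above control in every 8 min group, 17 of 27 were higher than under HS at 2 min, and of the 7 rapid-list members 5 were. Counts of higher members moved with single libraries: against HS they were 12 without replicate 1 and 13 without replicate 3 of HL&HS, and 13, 13 and 12 without replicates 1, 2 and 3 of HS. Against HL they were 4 without HL&HS replicate 3, 4 without HL replicate 2 and 5 without HL replicate 3, and 15 in edgeR and 13 in DESeq2.

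SZF1 had the smallest p of the members against both HS and HL+HS. Its 2 min stem libraries held 452, 496 and 494 normalized counts under HL&HS, 332, 343 and 334 under HL+HS, 289, 345 and 326 under HS, and 464, 410 and 415 under HL, so HL&HS overlapped HL alone. It was higher than under HS by 0.59 ± 0.06 (SE; adjusted p = 9.11e-09, limma) and than under HL+HS by 0.51 ± 0.06 (adjusted p = 2.77e-07). WRKY33, with 97.6, 102 and 121 under HL&HS, 76.2, 70.1 and 64.3 under HL+HS, 86.2, 70.2 and 77.5 under HS and 98.0, 102 and 95.1 under HL, was higher by 0.60 ± 0.12 than under HL+HS (adjusted p = 0.00151, limma). BCS1 held 371, 331 and 353 under HL&HS, 265, 263 and 279 under HL+HS, 245, 249 and 242 under HS and 304, 283 and 289 under HL, above each in every library, and differed from HS by 0.52 ± 0.07 (adjusted p = 4.61e-06, limma). ERF104 was the member lower than under HL, at -0.69 ± 0.17 (adjusted p = 0.0113, limma).

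Of the 10 heat-list members 2, HSP70 and HSP90.1, were lower under HL&HS than under HS at 2 min, and 8 did not pass. HSP70 held 1150, 1220 and 1136 under HL&HS, 950, 929 and 946 under HL+HS, 1400, 1361 and 1376 under HS and 766, 713 and 755 under HL. The 4 groups did not overlap, and HS rather than HL&HS was the highest. HSP70 was higher than under HL by 0.65 ± 0.05 (SE; adjusted p = 8.02e-12, limma) and lower than under HS by -0.24 ± 0.05 (adjusted p = 0.00309). HSP90.1 had the same order at its ends, with 457, 433 and 447 under HL&HS, 544, 577 and 574 under HS and 342, 352 and 361 under HL, and was lower than under HS by -0.34 ± 0.07 (adjusted p = 0.000616, limma). At this time HSFA2 held 70.7, 82.3 and 94.7 under HL&HS, within the range of the HS libraries at 70.2, 97.9 and 68.3, and above the HL libraries at 58.0, 55.8 and 58.0. It was higher than under HL by 0.51 ± 0.14 (SE; adjusted p = 0.0339, limma).

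In stem at 2 min the floral organ identity markers also differed between groups, and their part in the values given here was not tested. THI2.1 had the largest member differences from HL and from HL+HS at that time. It held 129, 107 and 149 under HL&HS, 45.2, 48.7 and 48.4 under HL+HS, 76.7, 95.2 and 102 under HS and 52.6, 73.8 and 49.1 under HL, and was higher than under HL+HS by 1.41 ± 0.21 (SE; adjusted p = 1.55e-05, limma) and than under HL by 1.13 ± 0.21 (adjusted p = 0.000452). NCED3, at 25.6, 31.5 and 33.1 under HL&HS, 12.05, 14.8 and 19.1 under HL+HS and 16.3, 13.3 and 19.6 under HL, was higher by 0.94 ± 0.19 than under HL+HS (adjusted p = 0.00156, limma). AT1G26800 went against its 8 min order, with 119, 107 and 111 under HL&HS and 160, 160 and 162 under HL+HS, both after 2 min (-0.52 ± 0.12, adjusted p = 0.00558, limma), as did AT4G32480, at 207, 220 and 226 and at 279, 261 and 260 (-0.29 ± 0.08, adjusted p = 0.0444).

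**Figure D5:**
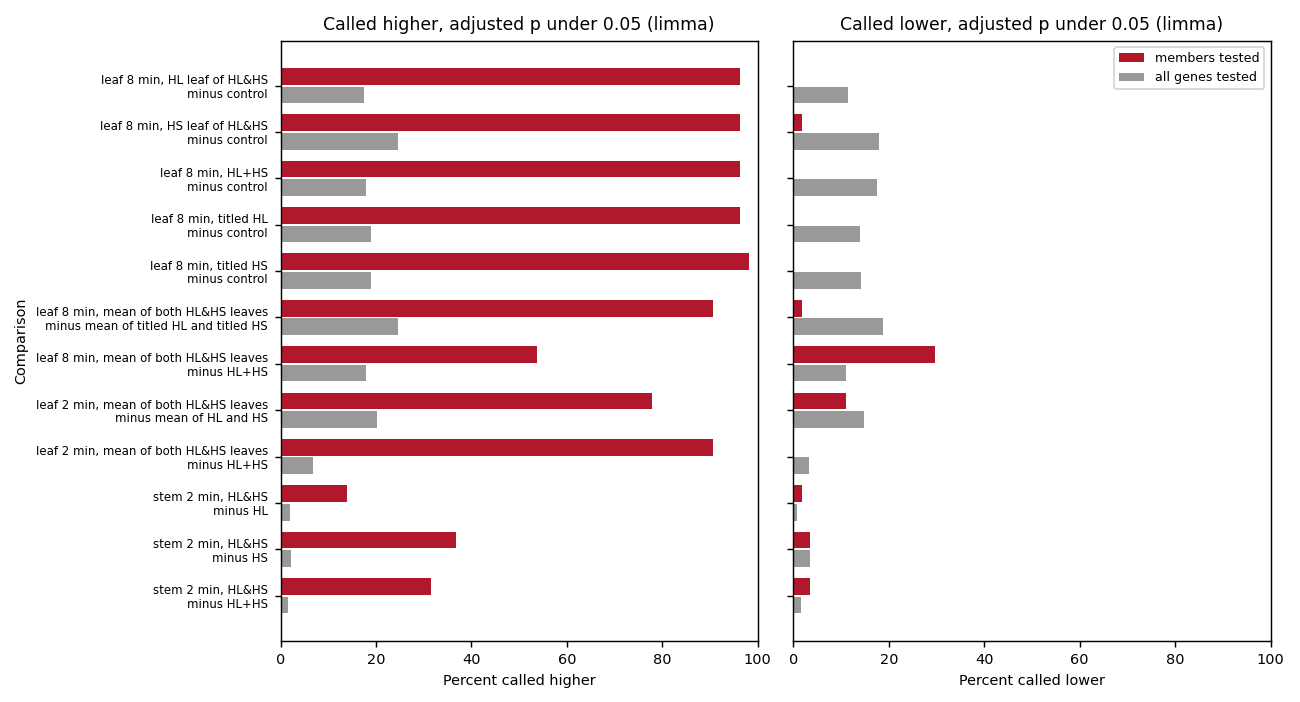
Bars give the percent of members tested (red) and of all genes tested (grey) called higher (left) and lower (right) in each of 12 comparisons, in limma with adjusted p under 0.05. Members exceed the background among higher calls in all 12. Among lower calls they are below the background in most comparisons. Where they exceed it, the gap is widest for HL&HS leaves against HL+HS at 8 min, at 16 of 54 members against 1997 of 18231 genes.

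List genes outside the members are given for some of the same comparisons. The lists were drawn up with earlier results of these data known, so the counts describe these genes only. Of the 28 chaperone-list genes tested in leaf that are no members, 25 were lower in HL&HS leaves than under HL+HS at 8 min (11% of all genes tested), with a median of -0.77, and at 2 min 22 were higher (6.74%). Of the 20 rapid-list genes that are no members, 13 were higher (17.8% of all genes) and 1 lower than under HL+HS at 8 min, with a median of 0.29. Of the 22 jasmonate genes tested 9 were lower in that comparison (11% of all genes; limma, adjusted p under 0.05), with a median of -0.15. In stem at 2 min 13 of 20 jasmonate genes were higher under HL&HS than under HL (2.01% of all genes tested). Of the 20, 12 were lower than under HS (3.56%). None of the jasmonate genes was a member at 8 min. The summed floral organ identity markers of these groups were also highest under HS and lowest under HL, and their part was not tested.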

How the data were processed

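RNA-seq of leaves and stems gave 60 libraries in 20 groups of 3. Per the submitters' processing notes, FastQC 0.11.7, STAR 2.4.0.1, DESeq2 1.20.0 and the build TAIR10 were used. The counter, its strand setting and the annotation are not given in the sources used here. The deposited signal is normalized gene counts: every value was a whole multiple of 1 unit per library (100% within 1e-06 reads), so read counts were recovered by dividing out the size factor, and gave the depths stated above.

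The members and gene lists were chosen with earlier results of these data known. Tests used limma 3.58.1 (R 4.3.3) with an intensity trend on log2(normalized count + 1), for genes averaging 10 or more in the tissue, all groups of a tissue in 1 fit, with Benjamini-Hochberg adjustment over all genes tested and a threshold of 0.05. Differences are log2 with standard errors. The method was tested on simulated data. Alternatives were edgeR 4.0.16 and DESeq2 1.42.0 on the recovered counts, other floors, pseudocounts, thresholds and scaling, no filter, fits of the compared groups alone, leaving out each library, and a replicate block. Same-numbered libraries did not deviate together (median r 0.0071 in stem, range -0.139 to 0.137, and 0.0048 in leaf, range -0.105 to 0.214), so the numbers were not taken to pair samples. Names and promoters came from RefSeq TAIR10.1, to which 32548 loci and all 57 members matched. Named genes were the 12 members with the largest margin, members on a list, the 2 with the smallest p per comparison and direction, up to 10 regulators, and the genes at the threshold. Other members named for a class, family, motif or neighbour were chosen after their values were seen.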

Additional observations from a re-analysis of the deposited data

Results flagged for a closer look

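For 16 members the direction of HL&HS against HL+HS at 8 min was opposite in leaf and stem: all 6 HL&HS leaf libraries lay below the HL+HS ones and all 3 HL&HS stem libraries above. These are not the 16 members called lower in leaf, which hold AT1G26800 and not AT4G39363. The stem side was fixed by the choice of members, and the difference between tissues was not tested. The share of all genes with all 6 HL&HS leaf libraries below the HL+HS ones was not counted. The leaf log2 differences were -0.98 for BAG6, -0.85 for AT5G51440, -0.75 for TRFL3, -0.72 for HSP90.1 and for AT1G59860, and -0.7 for AT1G07400. They were -0.66 for AT1G54050, -0.65 for HSP101, AT5G35320 and PDX1.2, -0.61 for HSFA2, -0.56 for MBF1C and -0.54 for AT2G20560, the J-domain gene. AT4G39363, which is not annotated as protein-coding, was at -0.47 and did not pass the test (adjusted p = 0.0593, limma), AT1G66080 at -0.44 and HSP70 at -0.42.

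Within stem, AT1G26800 and AT4G32480 had every HL&HS library below HL+HS at 2 min, at -0.52 and -0.29, and above it at 8 min. The 8 min side was fixed by the choice of members. Of the 57 members these 2 were called lower at 2 min, beside 1.66% of the 18428 genes tested (limma, adjusted p under 0.05). How many of all genes had every HL&HS library below HL+HS at 2 min was not counted. This difference between times was not tested, and the libraries of 2 min were sequenced more deeply than those of 8 min.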

How the results depend on the processing

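A threshold of 0.8 in place of 0.6 left 22 members, and leaving out 1 of the 15 libraries of the rule gave 54 to 71. Of the 57 members 38 were kept in all 15 of these, and each kept at least 51. In leaf at 8 min, HL&HS against titled HS alone gave 27 higher and 9 lower members (21.2% and 18.0% of all genes), and against titled HL alone 52 and 1 (22.3% and 16.7%). Against titled HS alone 5 of the 33 named members turned direction, and members not named were not counted. The 5 were AT1G72910 at -0.16, AT2G24600 at -0.16, HSPRO2 at -0.38, ERF5 at -0.14 and ERF6 at -0.10. All 5 were above 0 against the mean of both single stresses. Without a filter 2 members were lower against that mean. In leaf at 2 min, edgeR called 1 member lower than HL+HS. In stem at 2 min, members higher than under HL numbered 8 with all libraries, 5 without a filter, 14 with the compared groups alone, 15 in edgeR and 13 in DESeq2, and members lower numbered 1, and 3 in each of the last 3 settings; single left-out libraries gave 4 to 8 higher and 0 to 1 lower. Against HS they gave 12 to 15 higher. Against HL+HS members lower numbered 2 with all libraries and 1 without a filter, with the replicate block and without any 1 library. With the replicate block, stem members higher than under HS at 2 min numbered 19. Causes were not tested. Of the recomputed counts 344 stayed within 1.5 times and 31 did not. Of the values of single named genes 5 turned direction, 65 lost and 52 gained a call.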

Other observations

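Jasmonate genes, of which none of 17 was a member, had 6 at least 0.6 above control (3.63% of all genes) in stem under HL&HS at 8 min, with a median of 0.14. The rule used these 8 min stem values, so this count is a description with no test. In stem at 2 min 10 of 20 jasmonate genes were higher under HL&HS than under HL+HS (1.47% of all genes tested). Of the 20, 1 was lower (1.66%, limma, adjusted p under 0.05), and the median difference was 0.37. The summed floral organ identity markers were also higher under HL&HS than under HL+HS at that time, and their part was not tested. In leaf at 2 min 10 of 11 ER stress genes were lower in HL&HS leaves than in the mean of HL and HS (14.7% of all genes; limma, adjusted p under 0.05), with a median of -1.37, beside 0.03 over all genes tested.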
